A study of Mus musculus with 6 samples.

Results

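The respiratory chain genes of mouse 4T-1 cells were taken as the protein-coding genes named Nduf, Cox4 to Cox8, Uqcr, Cyc1, Sdha to Sdhd or Atp5, together with the 13 protein-coding genes of the mitochondrial genome. They came to 112 of the 40205 genes in the count table, 99 encoded in the nucleus and 13 in the mitochondrion. 4T-1 is a mouse mammary carcinoma line. Y641-F cells carried a retroviral EZH2 with the hyperactive Y641-F change (labelled 4T1-Y641, genotype Y641 mutated), and Control cells carried the MSCV retroviral vector (labelled 4T1, genotype WT), with 3 RNA-seq libraries of each. Both groups were stably transduced cells, and the sources do not describe them as clones or as separate transductions, so that p-values measure the spread between batches of cells. The sources name puromycin for the selection of both lines in one place and hygromycin for the Y641-F cells in another, so that it is not clear whether the drug differed between the groups.

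The respiratory chain moves electrons from NADH through complex I, or from succinate through complex II, to ubiquinone, then through complex III and cytochrome c to complex IV, which reduces oxygen. Complexes I, III and IV pump protons across the inner mitochondrial membrane, and complex V, the ATP synthase, uses the gradient to make ATP. Complexes I, III, IV and V are built from subunits of both genomes, whereas complex II is encoded by nuclear genes alone. The mitochondrial genome is copied into long RNAs that are cut at tRNA genes to release the mRNAs, and the nuclear subunits are translated in the cytosol and imported.

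The libraries held 32509268 to 36429035 counts in Y641-F cells and 32955434 to 34881914 in Control cells. Levels are given as CPM, a gene's count relative to its library's effective size after scaling by trimmed mean of M-values (TMM), and log2 fold changes are Y641-F over Control. A gene was called where edgeR's quasi-likelihood test gave an adjusted p under 0.05 over the 21043 genes tested, and 6651 of these (31.6%) were called, 3277 higher (15.6%) and 3374 lower (16.0%), with a median log2 fold change of -0.01 over all of them. Mouse Ezh2 had 119, 102 and 123 CPM in the Y641-F libraries, against 99.6, 121 and 110.3 CPM in the Control libraries (log2 fold change 0.06, standard error 0.102, edgeR adjusted p = 0.730), which does not separate the groups. The sources do not say whether reads of the transgene would have been counted on this gene. The 6 epithelial markers summed to 2938 to 3362 CPM in Y641-F cells and 3060 to 3140 CPM in Control cells in these cells labelled epithelial. The 6 haematopoietic markers summed to 5.96 to 7.08 CPM in Y641-F cells and 12.3 to 15.8 CPM in Control cells, while the fibroblast, endothelial, adipocyte and striated muscle lists stayed under 50 CPM in every library. Of the fibroblast markers, Lum was at 0 in all libraries, and the part of any such cells in the results was not tested.

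Transcripts of both genomes were mostly higher in Y641-F cells, and the mitochondrially encoded ones had the larger median. Of the 13 mitochondrially encoded genes 12 rose and 0 fell, with a median log2 fold change of 1.01. Of the 95 nuclear-encoded genes that passed the filter on low counts, 49 rose (51.6%), 4 fell (4.21%) and 42 were not called, with a median log2 fold change of 0.32. These shares stand beside the 15.6% called higher and the 16.0% called lower over all genes tested. The 4 nuclear-encoded genes left untested, Cox6b2, Cox8b, Cox8c and Ndufa4l2, had few counts or none. In 47 of the 95 nuclear-encoded genes and 8 of the 13 mitochondrially encoded genes all Y641-F libraries lay above all Control libraries, which was so for 21.2% of all genes tested. The opposite order held for 8 and 0 of them, against 23.3% of all genes tested.

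The number of nuclear-encoded calls depended on single libraries. It was 23 higher and 3 lower without Control replicate 1, 19 higher and 3 lower without Control replicate 2, and 25 higher and 4 lower without Y641-F replicate 3. Leaving out any of the other libraries gave 42 to 52 higher. The median log2 fold change of the nuclear-encoded genes ran between 0.24 and 0.40 over the same 6 repeats, and that of the mitochondrially encoded genes between 0.82 and 1.22. With library totals alone as the scale, 29 nuclear-encoded genes were called higher and 7 lower. On that scale the median over all genes was -0.11 and that of the nuclear-encoded genes 0.23, and 35.7% of all calls were higher, against 49.3% with TMM.

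**Figure D1:**
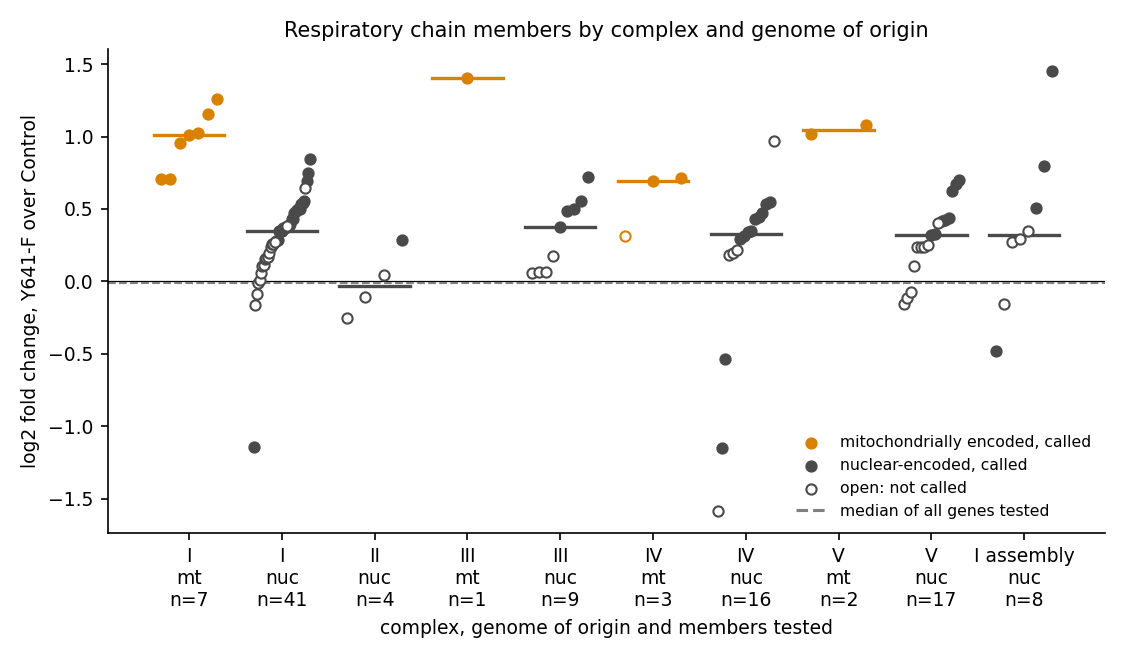
Log2 fold change (Y641-F over Control, vertical axis) of each tested member, grouped along the horizontal axis by complex and genome of origin. Filled points were called, open points were not, short lines are group medians and the dashed line is the median of all genes tested, -0.01. The mitochondrially encoded points lie between 0.32 and 1.40. Of the 95 nuclear-encoded points 81 lie above 0, mostly up to 0.84, with Cox4i2 at 0.97 and Ndufaf4 at 1.45. The rest lie below 0 and reach down to -1.58.

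Complex I holds 7 mitochondrially encoded subunits, ND1 to ND6 and ND4L, which form the proton-pumping membrane arm, and all 7 rose. ND1 had 1988, 3475 and 2747 CPM in the Y641-F libraries, against 1345, 1149 and 1732 CPM in the Control libraries (log2 fold change 0.96, standard error 0.197, edgeR adjusted p = 0.00280). ND3 had 261, 445 and 310.2 CPM in the Y641-F libraries, against 137, 119.9 and 167 CPM in the Control libraries (log2 fold change 1.26, standard error 0.179, edgeR adjusted p = 0.000237). ND4L had 392, 513 and 640.2 CPM in the Y641-F libraries, against 213, 177 and 302 CPM in the Control libraries (log2 fold change 1.16, standard error 0.199, edgeR adjusted p = 0.000888). ND3 had the largest rise among these 7 genes, and no Y641-F library of the 3 genes overlapped a Control library. ND2 averaged 1471 ± 326 CPM in Y641-F cells and 724 ± 176 CPM in Control cells (SD, n = 3 each), a log2 fold change of 1.02 (standard error 0.188, edgeR adjusted p = 0.00136). ND4 averaged 1915 ± 407 CPM in Y641-F cells and 950.0 ± 307 CPM in Control cells (SD, n = 3 each), a log2 fold change of 1.01 (standard error 0.211, edgeR adjusted p = 0.00313). ND5 had 918, 1114 and 1440.0 CPM in the Y641-F libraries, against 576, 546 and 1000.3 CPM in the Control libraries (log2 fold change 0.71, standard error 0.220, edgeR adjusted p = 0.0278). ND6, the only protein-coding gene of the light strand, had 358, 467 and 482 CPM in the Y641-F libraries, against 212, 208 and 379 CPM in the Control libraries (log2 fold change 0.71, standard error 0.206, edgeR adjusted p = 0.0201). For ND5 and ND6 the groups overlapped, with Control replicate 3 above Y641-F replicate 1.

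CYTB, the haem b-bearing subunit of complex III, had the largest rise of the 13, at 2.65-fold (95% interval 1.93 to 3.63). It had 1796, 2837 and 2697 CPM in the Y641-F libraries, against 791, 742 and 1238 CPM in the Control libraries (log2 fold change 1.40, standard error 0.210, edgeR adjusted p = 0.000342). Of the ATP synthase subunits of the proton channel, ATP6 had 3170.2, 5449.9 and 4456 CPM in the Y641-F libraries, against 1973, 1724 and 2770.2 CPM in the Control libraries (log2 fold change 1.02, standard error 0.207, edgeR adjusted p = 0.00270), and ATP8 averaged 1566 ± 418 CPM in Y641-F cells and 742 ± 176 CPM in Control cells (SD, n = 3 each), a log2 fold change of 1.08 (standard error 0.203, edgeR adjusted p = 0.00158). All 3 Y641-F libraries of these 3 genes lay above all Control libraries, with Y641-F replicate 1 the lowest of its group each time and Control replicate 3 the highest of its own.

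The 3 mitochondrially encoded subunits of complex IV, which hold its catalytic core, had a median log2 fold change of 0.69, the lowest of the 4 complexes with such subunits. COX1, the oxygen-reducing subunit, had 5139, 8196 and 7627 CPM in the Y641-F libraries, against 5059, 4499.5 and 7279 CPM in the Control libraries and was not called (log2 fold change 0.32, standard error 0.203, edgeR adjusted p = 0.275, 95% interval of the fold 0.915 to 1.69). COX2, which takes electrons from cytochrome c, had 2347, 3798 and 3177 CPM in the Y641-F libraries, against 1637, 1550.0 and 2487 CPM in the Control libraries (log2 fold change 0.72, standard error 0.201, edgeR adjusted p = 0.0170). COX3 had 1673, 2766 and 2077 CPM in the Y641-F libraries, against 1211, 1139 and 1685 CPM in the Control libraries (log2 fold change 0.69, standard error 0.189, edgeR adjusted p = 0.0148). In all 3 genes Control replicate 3 lay above Y641-F replicate 1, so the groups overlapped. The calls of COX2, COX3, ND5 and ND6 were lost without Control replicate 1 (8 mitochondrially encoded genes called) or Control replicate 2 (8 called), and those of COX2, ND5 and ND6 without Y641-F replicate 3 (9 called). DESeq2 called 10 of the 13, without COX1, ND5 and ND6, and edgeR with no filter on low counts called all 13.

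The 13 mRNAs, counted here as 1 per gene, can be compared with each other within a library, which needs no scaling between libraries. COX1 made up 23.7, 23.5 and 24.6% in the Y641-F libraries, against 32.96, 32.7 and 32.8% in the Control libraries. CYTB made up 8.28, 8.13 and 8.69% in the Y641-F libraries, against 5.15, 5.40 and 5.58% in the Control libraries. These shares varied little within a group, and the ratio of CYTB to COX1 counts was 0.350, 0.346 and 0.354 in the Y641-F libraries, against 0.156, 0.165 and 0.170 in the Control libraries. ATP6 made up 14.6, 15.6 and 14.4% in the Y641-F libraries, against 12.9, 12.5 and 12.5% in the Control libraries. ND2 made up 5.09, 4.95 and 5.10% in the Y641-F libraries, against 4.35, 4.24 and 4.15% in the Control libraries. ATP8 averaged 5.33 ± 0.217% in Y641-F cells and 4.35 ± 0.155% in Control cells (SD, n = 3 each). The share was higher in every Y641-F library than in every Control library for 8 mRNAs (ND1, ND2, ATP8, ATP6, ND3, ND4L, ND4 and CYTB) and lower for 1, COX1, while COX2, COX3, ND5 and ND6 overlapped. For each of those 9 mRNAs a two-sided exact permutation test gave p = 0.1, the smallest that 3 against 3 libraries allow, and 0.144 after Benjamini-Hochberg adjustment over the 13, so no share passed 0.05. The 13 shares add up to the whole and are not independent of each other. ATP8 and ATP6 are read from 1 mRNA, as are ND4L and ND4, so both pairs are counted double here.

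**Figure D2:**
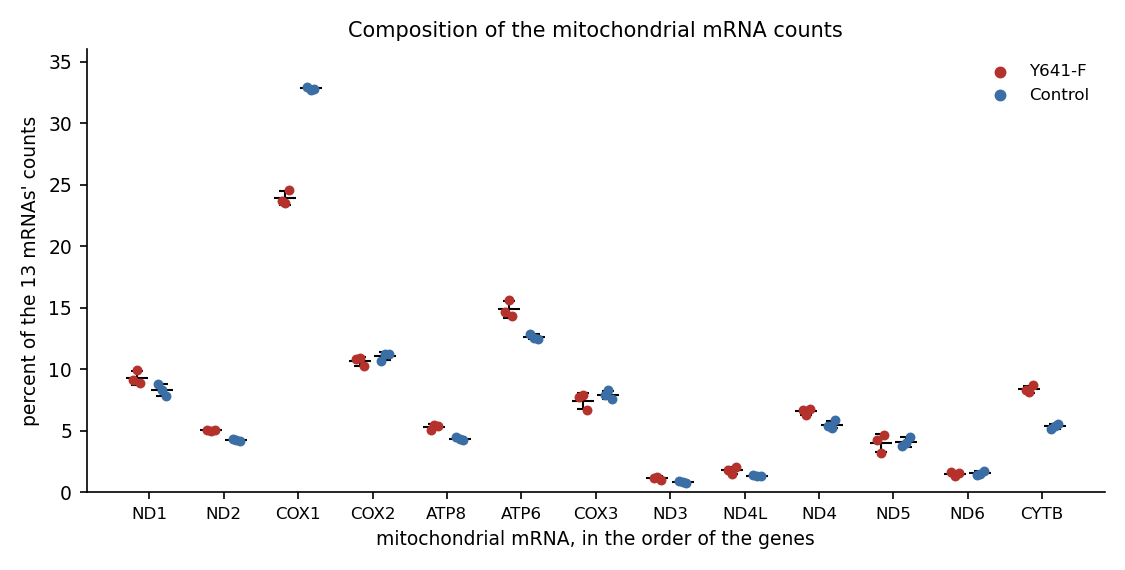
Share of each mRNA in the summed counts of the 13 mitochondrial mRNAs (percent, vertical axis), with the genes in their order on the mitochondrial genome. Red points are the Y641-F libraries and blue points the Control libraries, with the mean and SD in black (n = 3 each). COX1 lies at 23.5% to 24.6% in Y641-F and 32.7% to 33.0% in Control, and CYTB at 8.13% to 8.69% in Y641-F and 5.15% to 5.58% in Control.

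Some counts of mitochondrial genes cannot be assigned to 1 gene without a choice, because the genes overlap or have copies elsewhere. The overlaps are shown on GRCm39 with 20 bases on each side, plus strand, and the bases shared by both genes in capitals. ATP8 and ATP6 share 43 bases on the same strand and are read from 1 mRNA, ND4L and ND4 share 7, and ND5 and ND6 share 14 on opposite strands.
ATP8/ATP6, chrM:7907-7989: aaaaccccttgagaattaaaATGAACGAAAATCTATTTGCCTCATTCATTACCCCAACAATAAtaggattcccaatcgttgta
ND4L/ND4, chrM:10147-10193: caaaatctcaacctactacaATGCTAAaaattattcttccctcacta
ND5/ND6, chrM:13532-13585: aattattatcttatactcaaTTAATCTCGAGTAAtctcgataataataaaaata
The pairs read from 1 mRNA had log2 fold changes of 1.08 and 1.02, and of 1.16 and 1.01, so each pair differed by less than the standard error of either gene. A stretch of chromosome 1 (chr1:24650616-24655269) matches positions 6390 to 11042 of the mitochondrial genome at 99.9% identity. It covers 31.3% of COX1, all of COX2, ATP8, ATP6, COX3, ND3 and ND4L and 63.6% of ND4, while ND1, ND2, ND5, ND6 and CYTB lie outside it. A further stretch on chromosome 2 (chr2:22477300-22480546) matches positions 4441 to 7699 at 97.4% identity, which includes the whole of COX1 and COX2 and 49.2% of ND2. The sources do not say how reads that match several places were counted. The 4 genes outside both stretches had log2 fold changes of 1.40 (CYTB), 0.96 (ND1), 0.71 (ND5) and 0.71 (ND6), against 0.32 to 1.26 for the 9 genes wholly or partly inside them. The part of these copies in the counts was not tested.

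The other RNAs of the mitochondrial genome were looked at after the values of the mRNAs were known. The ribosomal RNAs mt-Rnr1 and mt-Rnr2 were not called (log2 fold change -0.20 and 0.36, edgeR adjusted p = 0.455 and 0.102). The ratio of mt-Rnr1 to the summed mitochondrial mRNA counts was 0.00877, 0.00857 and 0.00709 in the Y641-F libraries, against 0.0134, 0.0203 and 0.0147 in the Control libraries, and lower in every Y641-F library. It is a ratio of counts, not of molecules, and the part of the library preparation in it was not tested. Among the 22 tRNA genes 4 rose and 3 fell, beside 31.6% of all genes called in either direction, so that the share called was near that of all genes. TrnE and TrnF rose (log2 fold change 1.16 and 1.19, edgeR adjusted p = 0.00145 and 0.0389), as did TrnL1 (0.67) and TrnS1 (0.60), while TrnC (-0.70), TrnN (-0.73) and TrnY (-0.59) fell. TrnF had few counts, 33, 55 and 42 in the Y641-F libraries and 13, 18 and 29 in the Control libraries. The sources do not state a strand setting for the counting. Whether the counts on these genes came from finished tRNAs or from the long RNAs was not tested.

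Of all counts, the 13 mitochondrial mRNAs together took 2.07, 3.52 and 2.92% in the Y641-F libraries, against 1.64, 1.42 and 2.23% in the Control libraries. The 99 nuclear-encoded genes took 1.20, 1.27 and 1.27% in the Y641-F libraries, against 1.09, 1.16 and 1.24% in the Control libraries. Both overlapped between the groups. The ratio of summed mitochondrially encoded to summed nuclear-encoded counts was 1.72, 2.78 and 2.30 in the Y641-F libraries, against 1.51, 1.23 and 1.80 in the Control libraries. On the log2 scale the difference of the means was 0.57, from 1.15 ± 0.348 in Y641-F cells and 0.579 ± 0.274 in Control cells (SD, n = 3 each), and Control replicate 3 lay above Y641-F replicate 1. Taken as the mean of log2 counts, which weights each gene alike, and with nuclear-encoded members of at least 50 counts in every library, the difference was 0.64 and the groups did not overlap. In bulk libraries more RNA per mitochondrion, more mitochondria per cell and more cells with such RNA cannot be told apart.

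Split by complex, the ratio for complex III was 1.38, 2.22 and 1.90 in the Y641-F libraries, against 0.767, 0.675 and 1.06 in the Control libraries. For complex I it averaged 2.65 ± 0.511 in Y641-F cells and 1.64 ± 0.308 in Control cells (SD, n = 3 each), and for complex V it averaged 1.23 ± 0.362 in Y641-F cells and 0.642 ± 0.133 in Control cells (SD, n = 3 each). In these 3 complexes every Y641-F library had a higher ratio than every Control library. For complex IV it was 3.43, 5.24 and 4.56 in the Y641-F libraries, against 3.93, 3.27 and 4.30 in the Control libraries, and the groups overlapped. COX1, which holds a large part of the complex IV counts, had a ratio to Cox4i1 counts of 11.5 ± 2.86 in Y641-F cells and 10.6 ± 1.74 in Control cells (SD, n = 3 each). A two-sided exact permutation test of the COX1 to Cox4i1 ratio gave p = 0.800, and the ratios by complex were not tested. All are ratios of counts, not of molecules or proteins.

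**Figure D3:**
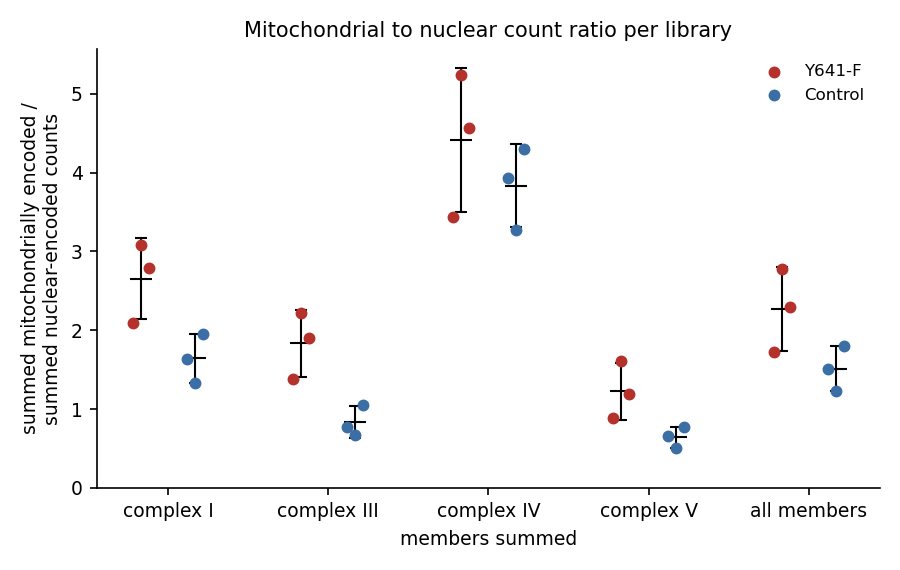
Summed counts of the mitochondrially encoded genes divided by those of the nuclear-encoded genes (vertical axis) in each library, for complexes I, III, IV and V and for all members. Red points are the Y641-F and blue points the Control libraries, with mean and SD in black (n = 3 each). The groups separate for complexes I, III and V, and overlap for complex IV and for all members.

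Per kilobase of transcript, and by the mean of both groups, the 10 highest members were all mitochondrially encoded. ATP8 averaged 7674 CPM per kilobase in Y641-F cells and 3636 in Control cells, ATP6 averaged 6400.3 in Y641-F cells and 3166 in Control cells, and COX1 averaged 4522 in Y641-F cells and 3633 in Control cells. The highest nuclear-encoded gene, Atp5b, which encodes the catalytic beta subunit of the ATP synthase, averaged 818 CPM per kilobase in Y641-F cells and 862 in Control cells. In Control cells alone it lay above CYTB, ND4L, ND2 and ND4, at 808, 778, 698 and 689 CPM per kilobase. ND3, ND6 and ND5 ranked 13, 14 and 16 by the mean of both groups, below Atp5b at 11. ND3 averaged 974 CPM per kilobase in Y641-F cells and 407 in Control cells. Atp5md and Atp5mpl had no transcript length and are not ranked.

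Among the 41 nuclear-encoded genes named for subunits of complex I, 23 rose and 1 fell, with a median log2 fold change of 0.35. The core subunits Ndufs1, Ndufs3, Ndufs7, Ndufs8, Ndufv1 and Ndufv2 gave 0 calls, with log2 fold changes of -0.16 to 0.26. They include the carriers of the flavin and the iron-sulphur clusters. Ndufs1, for example, had 142, 119.8 and 148 CPM in the Y641-F libraries, against 114, 127 and 124 CPM in the Control libraries (log2 fold change 0.17, standard error 0.0992, edgeR adjusted p = 0.224). All 24 called genes were among the 34 genes counted as accessory subunits, which surround the core, and 23 of these genes rose (67.6%). The median transcript length was 1554 bases in these core subunits and 873 bases in the accessory subunits, and the difference between these classes was not tested.

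Ndufa5, an accessory subunit of the matrix arm, had the largest rise among the nuclear-encoded subunits of complex I, with 39.03, 37.9 and 45.1 CPM in the Y641-F libraries, against 22.9, 21.5 and 23.6 CPM in the Control libraries (log2 fold change 0.84, standard error 0.0978, edgeR adjusted p = 5.62e-05). Ndufb1 had 43.5, 57.1 and 52.6 CPM in the Y641-F libraries, against 26.7, 28.8 and 35.8 CPM in the Control libraries (log2 fold change 0.75, standard error 0.128, edgeR adjusted p = 0.000859). Ndufa3 had 35.8, 43.6 and 36.01 CPM in the Y641-F libraries, against 23.5, 20.6 and 27.3 CPM in the Control libraries (log2 fold change 0.69, standard error 0.120, edgeR adjusted p = 0.000953). In these 3 genes every Y641-F library lay above every Control library. The other 20 that rose had log2 fold changes of 0.28 to 0.55. The exception was Ndufv3 (chr17:31739052-31751735, + strand, GRCm39), which encodes a small subunit of the NADH-binding module. It had 22.5, 26.4 and 27.9 CPM in the Y641-F libraries, against 50.6, 57.3 and 62.1 CPM in the Control libraries, and fell by 1.15 on the log2 scale (standard error 0.109, edgeR adjusted p = 1.42e-05). Its counts relative to Ndufv1 of the same module were 0.193, 0.289 and 0.268 in the Y641-F libraries. They were 0.449, 0.469 and 0.540 in the Control libraries, with no overlap. Ndufv3 was chosen for its fall and Ndufv1 was not called, so this ratio adds no further support. Ndufb4, Ndufb4b and Ndufb4c resemble each other closely, as do Ndufab1 and Ndufab1-ps and Ndufs6 and Ndufs6b, so reads may be split between them. Ndufb4, Ndufb4b and Ndufb4c were each counted among the 23 that rose, so these are counts of genes and not of separate subunits. Complex I calls numbered 10 higher without Control replicate 1, 9 without Control replicate 2 and 13 without Y641-F replicate 3.

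Of the 8 Ndufaf genes, which help to assemble complex I and are not part of the finished enzyme, 3 rose and 1 fell. Ndufaf4 (chr4:24898079-24905001, + strand, GRCm39) had the largest rise among all nuclear-encoded members, with 36.8, 38.3 and 43.5 CPM in the Y641-F libraries, against 14.04, 13.6 and 15.7 CPM in the Control libraries. This was 2.73-fold (95% interval 2.34 to 3.20, log2 fold change 1.45, standard error 0.104, edgeR adjusted p = 1.78e-06), and the lowest Y641-F library lay well above the highest Control library. Ndufaf2 had 26.04, 21.6 and 30.2 CPM in the Y641-F libraries, against 13.5, 14.3 and 17.04 CPM in the Control libraries (log2 fold change 0.80, standard error 0.136, edgeR adjusted p = 0.000840), and Ndufaf6 averaged 20.1 ± 2.35 CPM in Y641-F cells and 14.2 ± 1.41 CPM in Control cells (SD, n = 3 each), a log2 fold change of 0.51 (standard error 0.121, edgeR adjusted p = 0.00687). Ndufaf7, a mitochondrial methyltransferase, had 20.4, 19.7 and 19.3 CPM in the Y641-F libraries, against 25.3, 26.99 and 30.3 CPM in the Control libraries, and fell by 0.48 on the log2 scale (edgeR adjusted p = 0.00292). These 3 rises stayed called on leaving out any 1 of the 6 libraries.

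Complex II, which has no mitochondrially encoded subunit, had 1 call and a median log2 fold change of -0.03. Sdhd, a membrane anchor, had 148, 143 and 163 CPM in the Y641-F libraries, against 116, 119 and 136 CPM in the Control libraries (log2 fold change 0.29, standard error 0.0954, edgeR adjusted p = 0.0383). Sdhd was the single call of the 4 genes, and was lost on leaving out replicate 1 of either group (edgeR adjusted p = 0.142 for Control, 0.0666 for Y641-F), Control replicate 2 (0.160) or the third Y641-F library (0.125). Sdha, the flavoprotein that oxidises succinate, had 193, 168 and 159.6 CPM in the Y641-F libraries, against 202, 210.3 and 209 CPM in the Control libraries, with all Y641-F libraries below all Control libraries (log2 fold change -0.25, standard error 0.0943, edgeR adjusted p = 0.0606). Sdha was called lower under 8 of the 10 other processing settings, with log2 fold changes of -0.24 to -0.35 there. Sdhb, the iron-sulphur subunit, had a log2 fold change of 0.04 (edgeR adjusted p = 0.772), and Sdhc was not called either.

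In complex III 5 of the 9 nuclear-encoded genes rose and 0 fell. Cyc1, the cytochrome c1 haem protein, had 177, 167 and 195 CPM in the Y641-F libraries, against 121, 122 and 123 CPM in the Control libraries (log2 fold change 0.56, standard error 0.0882, edgeR adjusted p = 0.000510). Uqcrq had 122, 152 and 149 CPM in the Y641-F libraries, against 72.5, 80.8 and 103 CPM in the Control libraries (log2 fold change 0.72, standard error 0.131, edgeR adjusted p = 0.00127). Uqcrb had 85.3, 89.9 and 96.4 CPM in the Y641-F libraries, against 52.7, 63.7 and 75.6 CPM in the Control libraries (log2 fold change 0.50, standard error 0.120, edgeR adjusted p = 0.00719). No Y641-F library of these genes overlapped a Control library, and Uqcr10 and Uqcr11, also small subunits, rose by 0.49 and 0.37 on the log2 scale. Uqcrfs1, the Rieske iron-sulphur protein, had 113, 98.1 and 131 CPM in the Y641-F libraries, against 101, 110.0 and 116 CPM in the Control libraries and was not called (log2 fold change 0.06, standard error 0.110, edgeR adjusted p = 0.713). The core proteins Uqcrc1 and Uqcrc2 and the hinge protein Uqcrh were not called, with log2 fold changes of 0.06 to 0.18. The count of 5 became 4 without Control replicate 2 and 6 without Y641-F replicate 2, and was 5 without each other library.

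Complex IV had 20 nuclear-encoded genes, of which 16 were tested, 9 rose and 2 fell. Cox7a2, the widely expressed form of subunit 7a, had 127, 171 and 129 CPM in the Y641-F libraries, against 85.2, 85.1 and 123 CPM in the Control libraries (log2 fold change 0.55, standard error 0.154, edgeR adjusted p = 0.0178). Cox7a2l, a relative of it that joins complexes III and IV into supercomplexes, had 133, 124 and 142 CPM in the Y641-F libraries, against 173, 188 and 216 CPM in the Control libraries and fell by 0.54 on the log2 scale (standard error 0.103, edgeR adjusted p = 0.00181). The ratio of Cox7a2l to Cox7a2 counts was 1.04, 0.721 and 1.10 in the Y641-F libraries, against 2.03, 2.20 and 1.77 in the Control libraries. Both genes separated the groups, in opposite directions, so this ratio could not overlap and adds no further support. Cox7a1, the form of heart and skeletal muscle, was near the limit of detection, with 20, 9 and 26 counts in the Y641-F libraries, against 39, 52 and 40 in the Control libraries. Its call (log2 fold change -1.15, standard error 0.404, edgeR adjusted p = 0.0463) was lost without any 1 of 5 libraries, all but Y641-F replicate 3, with edgeR adjusted p of 0.0707 to 0.141.

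In each of the other pairs of forms, 1 was present and the other scarcely detected. Cox4i1, which regulates the enzyme by binding nucleotides, had 607, 579 and 643 CPM in the Y641-F libraries, against 423, 522 and 656 CPM in the Control libraries (log2 fold change 0.19, standard error 0.140, edgeR adjusted p = 0.340), while Cox4i2 had 0, 9 and 6 counts in the Y641-F libraries, against 2, 6 and 0 in the Control libraries. Cox6a1 averaged 292 ± 13.5 CPM in Y641-F cells and 251 ± 29.04 CPM in Control cells (SD, n = 3 each), a log2 fold change of 0.22 (standard error 0.102, edgeR adjusted p = 0.134), while Cox6a2 had 3, 7 and 4 counts in the Y641-F libraries, against 1, 4 and 8 in the Control libraries. Neither widely expressed form was called, and the scarce forms had too few counts for a comparison. Cox6b1 averaged 127 ± 1.42 CPM in Y641-F cells and 102 ± 13.5 CPM in Control cells (SD, n = 3 each), a log2 fold change of 0.32 (standard error 0.101, edgeR adjusted p = 0.0321), and Cox6b2 had 0, 0 and 0 counts in the Y641-F libraries, against 0, 6 and 2 in the Control libraries. Cox8a averaged 259.9 ± 2.79 CPM in Y641-F cells and 212 ± 11.99 CPM in Control cells (SD, n = 3 each), a log2 fold change of 0.30 (standard error 0.0866, edgeR adjusted p = 0.0211), and Cox8b and Cox8c had 0 counts in all 6 libraries. Cox7b had 136, 179.8 and 161 CPM in the Y641-F libraries, against 86.1, 100.4 and 143 CPM in the Control libraries (log2 fold change 0.53, standard error 0.164, edgeR adjusted p = 0.0270), and Cox7b2 had 0, 4 and 2 counts in the Y641-F libraries, against 6, 9 and 5 in the Control libraries. In each of these 3 sets the widely expressed form was called higher. Ndufa4, long counted with complex I and now with complex IV, averaged 218 ± 26.97 CPM in Y641-F cells and 162 ± 30.8 CPM in Control cells (SD, n = 3 each), a log2 fold change of 0.43 (standard error 0.136, edgeR adjusted p = 0.0298), and Ndufa4l2 had 10, 1 and 6 counts in the Y641-F libraries, against 2, 3 and 2 in the Control libraries. Cox5b, which rose as well, had 160.3, 187 and 176 CPM in the Y641-F libraries, against 110.0, 128 and 141 CPM in the Control libraries (log2 fold change 0.47, standard error 0.106, edgeR adjusted p = 0.00526). The calls of Cox6b1, Cox7b, Cox8a and Ndufa4 were lost without Control replicate 2 (edgeR adjusted p = 0.103 to 0.140), without the third Y641-F library (0.0508 to 0.0905), and without 1 or 2 further libraries each. That of Cox7a2 was lost without Control replicate 1 (0.0856) or 2 (0.0851). The 9 rises numbered 3 without Control replicate 1, 1 without Control replicate 2 and 2 without Y641-F replicate 3, and 3 with library totals alone as the scale.

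In the ATP synthase 8 of the 17 nuclear-encoded genes rose and 0 fell. Atp5g1, 1 of 3 genes for the same mature subunit c of the rotor ring, had 105, 110.4 and 113 CPM in the Y641-F libraries, against 60.2, 67.4 and 74.1 CPM in the Control libraries (log2 fold change 0.70, standard error 0.0941, edgeR adjusted p = 0.000157). Of the summed counts of Atp5g1, Atp5g2 and Atp5g3 it made up 19.1, 20.6 and 18.8% in the Y641-F libraries. In the Control libraries it made up 14.7, 15.7 and 15.4%, below every Y641-F library. Atp5g1 was chosen for its rise, so this share adds no further support. Atp5k, the membrane subunit e, had 48.4, 74.96 and 58.8 CPM in the Y641-F libraries, against 36.2, 38.4 and 39.5 CPM in the Control libraries (log2 fold change 0.68, standard error 0.134, edgeR adjusted p = 0.00229). Atp5md, a small membrane subunit, had 173, 230.3 and 191 CPM in the Y641-F libraries, against 89.4, 125 and 172 CPM in the Control libraries (log2 fold change 0.62, standard error 0.190, edgeR adjusted p = 0.0261), and this call was lost without Control replicate 1 or 2 or Y641-F replicate 2 or 3, with edgeR adjusted p of 0.0541 to 0.0870. The alpha and beta subunits of the catalytic head were not called. Atp5a1, the alpha subunit, had a log2 fold change of -0.11 (edgeR adjusted p = 0.498), and Atp5b had 1646, 1395 and 1686 CPM in the Y641-F libraries, against 1535, 1753 and 1690.0 CPM in the Control libraries (log2 fold change -0.07, standard error 0.114, edgeR adjusted p = 0.671). Atpif1, the inhibitor of the enzyme, had a log2 fold change of 0.07 (edgeR adjusted p = 0.681), and Atp5mpl 0.24 (0.342). The 8 rises numbered 2 without Control replicate 1, 2 without Control replicate 2 and 2 without Y641-F replicate 3.

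**Figure D4:**
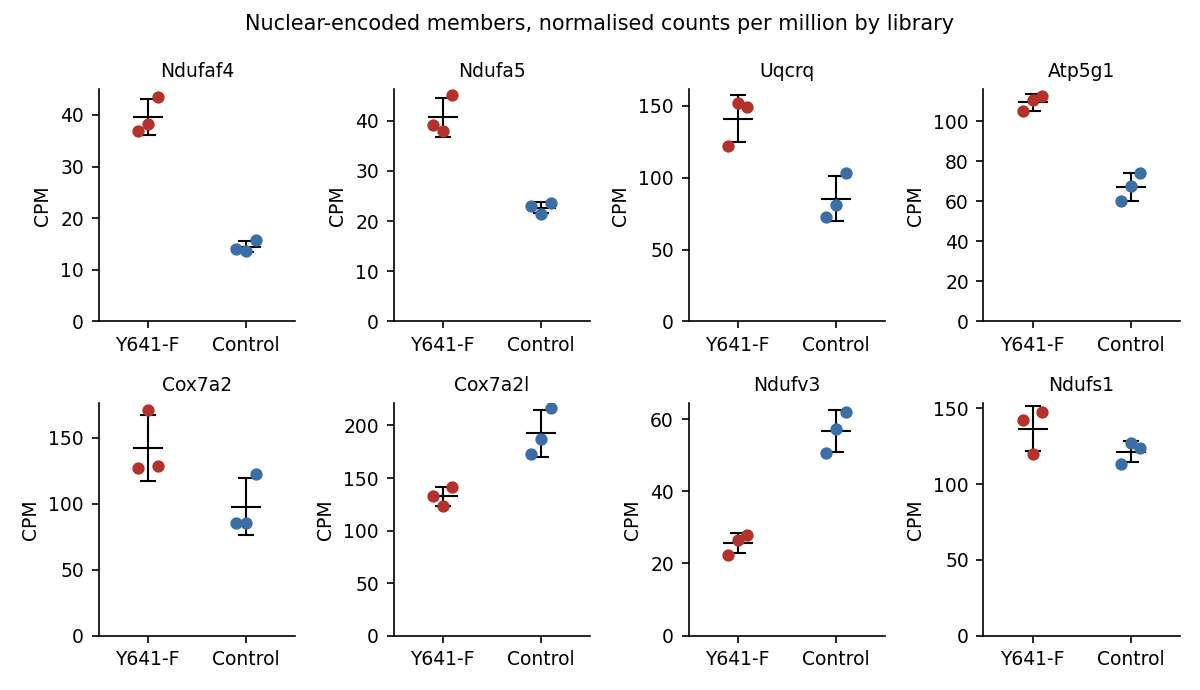
CPM (vertical axes, from 0) of 8 nuclear-encoded members in each library, Y641-F (red) left of Control (blue), with mean and SD in black (n = 3 each). Ndufaf4, Ndufa5, Uqcrq, Atp5g1 and Cox7a2 are higher in all Y641-F libraries, Cox7a2l and Ndufv3 are lower in all of them, and Ndufs1 overlaps.

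Many of the nuclear-encoded subunits have short transcripts, and length moved with the difference between the groups. Among protein-coding genes outside the respiratory chain with a mean of at least 1 CPM, the 132 with transcripts of up to 600 bases had a median log2 fold change of 0.29, and 28.0% of them were called higher. The 4906 over 4000 bases had a median of -0.08, and 16.6% were called higher. Of the nuclear-encoded members, the 19 of up to 600 bases had a median of 0.43, the 23 above that and up to 1000 bases 0.35, the next 25 up to 2000 bases 0.20 and the next 15 up to 4000 bases 0.17. The 6 longer members had a median of 0.34, and the bins of 19, 15 and 6 genes are thinly filled. From the shortest bin to the longest, 78.9, 65.2, 40.0, 26.7 and 66.7% of the members were called higher. Each length is that of 1 canonical transcript, such as 4389 bases for Ndufb2 and 4197 for Ndufb9. Which forms the cells expressed was not tested, so some genes may stand in the wrong bin. Over the 88 nuclear-encoded members of at least 1 CPM, the log2 fold change correlated with log2 length at r = -0.26 (Spearman rho -0.40), and over the 11917 other genes at r = -0.15 (rho -0.18). These are descriptions across genes, which share libraries and are not independent replicates.

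Control replicates 1 and 2 lay lowest for short transcripts. Their median deviation from a gene's mean over the 6 libraries was -0.35 and -0.25 for the members of up to 600 bases, and -0.19 and -0.17 for the other genes of that length, on the log2 scale. Control replicate 3 was at 0.00 for those members. Removing the trend with length from each library left 33 nuclear-encoded members called higher and 6 lower, a median log2 fold change of 0.22, and 12 mitochondrially encoded genes called. This correction was chosen after the data had been seen, and it tested 18606 genes in place of 21043, since genes without a transcript length drop out. Atp5md, called higher in the test of all genes, is among those left out. Under it, complex I had 16 members called higher, complex III 5, complex IV 4, complex V 5, the assembly factors 3 and complex II 0. The part of transcript length or of RNA quality in the calls was not tested beyond that.

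**Figure D5:**
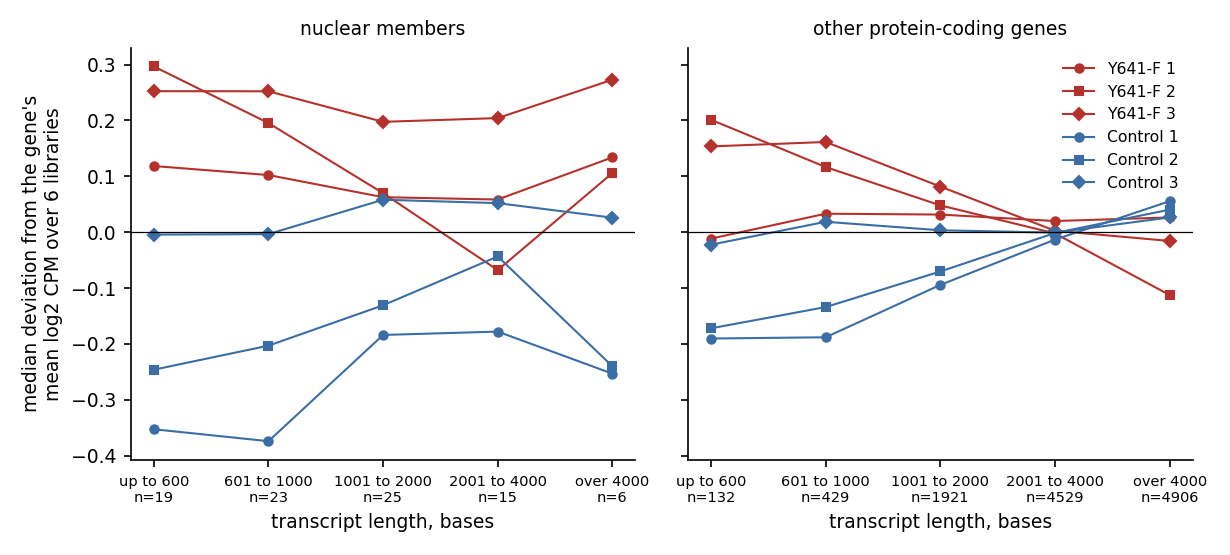
Median deviation of a gene's log2 CPM from its mean over the 6 libraries (vertical axis) in bins of transcript length (horizontal axis), for the nuclear-encoded members (left) and for other protein-coding genes (right). Red lines are Y641-F and blue lines Control libraries, with a marker for each replicate. The lines spread apart at short lengths in both panels, with Control replicates 1 and 2 lowest, and among members these 2 libraries are lowest in 4 of the 5 bins.

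The starts of the nuclear-encoded genes were searched for 4 motifs known from respiratory and hypoxia-regulated promoters, on both strands, in the 300-base windows given by RefSeq (GRCm38.p6, 250 bases before the start and 50 after). A window was present for 78 of the 99 genes, 83 windows in all. The palindromic site of NRF1, a factor of nuclear respiratory genes, was in 8.43% of these windows and 0.971% of all 32851 windows. The ETS site CCGGAAG, bound by GABPA among others, was in 22.9% of them and 8.86% of all. The letters ACGTG, the core of hypoxia-response and E-box sites, were in 24.1% against 19.6%, and GCGTG, its variant, in 55.4% against 32.4% of all. The members called higher (43 windows) held the NRF1 site in 9.30% and the ETS site in 20.9%, and those not called (34 windows) in 8.82% and 29.4%. These shares are descriptions of letters and were not tested.

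The 250 bases before the start are printed for the nuclear-encoded gene with the largest rise, the nuclear-encoded ATP synthase gene with the largest rise and 2 of the genes that fell, with motif matches in capitals. Ndufaf4 holds the NRF1 site, which begins 113 bases before the start. Atp5g1 holds ACGTG at 86 bases and, inside the palindrome CACGTG, on both strands at 44 bases. Cox7a2l holds none of the 4 in this stretch, and Ndufv3 holds GCGTG at 60 bases and its reverse complement at 100 bases. These stretches are shown 5′ to 3′ on the strand of the gene, in GRCm38.p6 coordinates.
Ndufaf4, chr4:24897833-24898082, + strand: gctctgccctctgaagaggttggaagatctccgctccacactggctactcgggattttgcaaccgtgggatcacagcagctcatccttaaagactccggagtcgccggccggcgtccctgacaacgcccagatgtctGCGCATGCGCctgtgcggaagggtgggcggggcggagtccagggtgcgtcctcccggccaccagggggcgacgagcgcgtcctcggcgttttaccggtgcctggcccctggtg
Atp5g1, chr11:96075632-96075881, - strand: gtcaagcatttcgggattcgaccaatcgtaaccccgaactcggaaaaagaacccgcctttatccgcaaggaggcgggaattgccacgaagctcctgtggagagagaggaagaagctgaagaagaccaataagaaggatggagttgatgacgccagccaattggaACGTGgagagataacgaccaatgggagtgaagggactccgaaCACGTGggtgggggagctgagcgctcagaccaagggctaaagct
Cox7a2l, chr17:83514334-83514583, - strand: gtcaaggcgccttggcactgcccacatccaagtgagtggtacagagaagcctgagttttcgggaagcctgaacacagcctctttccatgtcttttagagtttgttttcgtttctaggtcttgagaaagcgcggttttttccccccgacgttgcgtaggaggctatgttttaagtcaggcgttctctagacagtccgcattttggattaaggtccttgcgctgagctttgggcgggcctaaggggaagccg
Ndufv3, chr17:31519865-31520114, + strand: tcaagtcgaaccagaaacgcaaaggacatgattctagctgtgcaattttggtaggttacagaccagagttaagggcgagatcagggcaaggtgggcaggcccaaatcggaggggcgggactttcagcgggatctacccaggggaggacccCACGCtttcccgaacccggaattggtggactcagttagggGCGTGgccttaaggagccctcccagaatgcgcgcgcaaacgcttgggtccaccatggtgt

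Genes that serve the respiratory chain without belonging to it were read from 11 further lists of 157 genes, of which 153 were tested. Of these 60 rose and 12 fell (39.2% and 7.84%), beside 15.6% and 16.0% over all genes, with a median log2 fold change of 0.20. With library totals alone as the scale 43 rose and 24 fell. The counts among assembly factors were 5 higher and 1 lower of 11 for complex I beyond the Ndufaf genes, 4 and 0 of 6 for complex III, 10 and 1 of 25 for complex IV, 2 and 0 of 5 for complex V and 1 and 0 of 4 for complex II. Ecsit and Tmem126a, both of the complex I assembly machinery, rose by 0.69 and 0.74 on the log2 scale. Tmem126b, the 1 gene that fell among those 11, had a log2 fold change of -0.54 (edgeR adjusted p = 0.0172). The Tmem126b call was lost without Control replicate 3 or Y641-F replicate 3. Sco2, a copper chaperone of complex IV, rose by 0.72. Higd1a, a hypoxia-inducible partner of complex IV, fell by 0.55. Bcs1l, which inserts the Rieske protein into complex III, rose by 0.62.

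The genes that handle mitochondrial RNA had 14 rises (63.6%) and 0 falls among 22, beside 15.6% and 16.0% over all genes tested. Fastkd2, an RNA-binding protein of mitochondrial RNA granules, had 60.4, 60.8 and 62.9 CPM in the Y641-F libraries, against 25.9, 25.5 and 28.4 CPM in the Control libraries (log2 fold change 1.21, standard error 0.0854, edgeR adjusted p = 1.66e-06). Elac2, which cuts the 3′ ends of tRNAs from the long RNAs, had 62.6, 60.01 and 52.1 CPM in the Y641-F libraries, against 30.2, 30.7 and 28.4 CPM in the Control libraries (log2 fold change 0.97, standard error 0.0943, edgeR adjusted p = 1.64e-05). Lrpprc, which stabilises mitochondrial mRNAs, had 139.9, 114 and 129.9 CPM in the Y641-F libraries, against 129, 136 and 128 CPM in the Control libraries and was not called (log2 fold change -0.03, edgeR adjusted p = 0.826). Of the 16 genes of mitochondrial DNA copying and transcription 7 rose and 1 fell (43.8% and 6.25%). Tfb2m, a factor of mitochondrial transcription initiation, averaged 40.5 ± 4.69 CPM in Y641-F cells and 24.7 ± 0.988 CPM in Control cells (SD, n = 3 each), a log2 fold change of 0.71 (standard error 0.101, edgeR adjusted p = 0.000242), and Ssbp1, which binds single-stranded mitochondrial DNA, rose by 0.70 on the log2 scale. Tfam, which packs and helps to transcribe that DNA, had 48.3, 47.8 and 54.6 CPM in the Y641-F libraries, against 46.2, 51.99 and 53.8 CPM in the Control libraries (log2 fold change -0.01, edgeR adjusted p = 0.947). Polrmt, the mitochondrial RNA polymerase, had a log2 fold change of 0.24 (edgeR adjusted p = 0.0910). Mterf2, of the termination factor family, fell by 0.88 on the log2 scale (edgeR adjusted p = 0.000157).

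Over all genes tested 15.6% were called higher and 16.0% lower, and the lists that follow stand beside these shares. Of 10 nuclear regulators of respiratory genes 1 rose and 0 fell, both below those shares. This was Pprc1, a coactivator of the PGC-1 family, with 159.9, 164 and 143 CPM in the Y641-F libraries, against 70.5, 62.9 and 62.6 CPM in the Control libraries (log2 fold change 1.25, standard error 0.0927, edgeR adjusted p = 2.39e-06). Nrf1, Gabpa and the coactivators Ppargc1a and Ppargc1b were not called, with log2 fold changes of 0.12, 0.14, -0.42 and -0.28. Among 20 genes of electron carriers and quinone synthesis 5 rose and 5 fell (25.0% each). Cycs, cytochrome c itself, had 259.8, 256 and 296 CPM in the Y641-F libraries, against 118, 126 and 150.2 CPM in the Control libraries (log2 fold change 1.04, standard error 0.109, edgeR adjusted p = 2.72e-05). Coq10b, a ubiquinone-binding protein, rose by 1.29, while Coq8b fell by 1.10 and the sulphide oxidase gene Sqor, which was under 3 CPM in every library, by 1.58. Among 14 genes of protein insertion and quality control in the inner membrane 5 rose and 2 fell (35.7% and 14.3%). Chchd4, the import receptor for small cysteine-rich subunits, had 43.6, 43.7 and 46.1 CPM in the Y641-F libraries, against 12.9, 13.6 and 18.1 CPM in the Control libraries (log2 fold change 1.58, standard error 0.124, edgeR adjusted p = 3.4e-06), and Lonp1, a matrix protease, fell by 0.80. Of 20 genes of the tricarboxylic acid cycle and pyruvate supply 6 rose and 2 fell, with Mpc2, of the pyruvate carrier, up by 0.77 and Idh2, the NADP-dependent isocitrate dehydrogenase, down (log2 fold change -0.80).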

How the data were processed

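RNA of 6 cultures of 4T-1 cells (TRIzol, NEBNext Ultra II libraries, NovaSeq) was sequenced by the authors, who checked reads with FastQC and MultiQC, trimmed them with fastp, aligned them to GRCm39 with STAR version 2 and deposited unnormalised gene counts from featureCounts. Versions in the submitters' processing notes are featureCounts 2.0.1, fastp 0.20.1, MultiQC 1.9, FastQC 0.11.9 and, for base calls, bcl2fastq 2.19.0.316. Annotation, strand setting and handling of multi-mapping reads: not given in the sources used here.

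Genes under 0.1 CPM in more than 3 of the 6 libraries were removed (19162), and the rest were scaled by TMM and tested with edgeR 4.0.16 (quasi-likelihood, Benjamini-Hochberg adjustment over 21043 genes, R 4.3.3). The 95% intervals come from that fit and cover the spread between libraries. DESeq2 1.42.0 and limma 3.58.1 were alternatives, with other scalings and filters, a replicate block and each library left out. Exact permutation tests used scipy 1.17.1. Lengths and positions are of the canonical GENCODE vM39 transcript on GRCm39, matched for 110 of 112 members. Copies of the mitochondrial genome were found with blastn (at least 1000 aligned bases).

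The members and lists were chosen with earlier results of these data known. Named genes are the 13 mitochondrial genes, up to 3 largest rises and falls per complex, the paired isoforms, listed core subunits, up to 2 largest changes each way per further list with 8 listed regulators, and the 3 most abundant members per kilobase. Other names (the rest of complex III, members listed to account for a group, tRNA and rRNA genes, Ezh2) and the ratios between single genes were chosen after their values were seen. A gene that the rule also names is not reported here.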

Additional observations from a re-analysis of the deposited data

How the results depend on the processing

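Over all alternatives the median log2 fold change of the mitochondrially encoded members stayed between 0.82 and 1.22 and that of the nuclear-encoded members between 0.22 and 0.40. Library totals alone gave 29 nuclear-encoded members higher and 7 lower, complex I 13 and 2, complex II 0 and 1, complex IV 3 higher, complex V 5 and 1, and 24 further pathway genes lower. Removing the length trend, with fewer genes tested, gave complex II 0 and 1, complex IV 4 higher and complex V 5 and 1. Complex II had 1 gene lower, Sdha, also with upper-quartile factors, the filter of 1 CPM, no filter, the DESeq2 Wald test, limma-voom and mitochondrial mRNAs left out of library sizes. The cause was not tested. Leaving out 1 library gave 19 to 52 nuclear-encoded members higher, 9 to 23 in complex I, 0 to 1 in complex II, 1 to 9 in complex IV and 2 to 10 in complex V, with 0 to 1 lower in complex II and 1 to 2 in complex IV, and 8 to 12 mitochondrially encoded members higher.

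Same-numbered libraries did not pair (correlations of their deviations -0.07, 0.00 and 0.10). A replicate block gave 51 nuclear-encoded members higher and 3 lower, with 1 lower in complex IV, and 12 mitochondrially encoded members higher.

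Uncalled genes near 0 changed sign. Library totals put Sdhb at -0.054, Uqcrfs1 at -0.036 and Atpif1 at -0.024, and the length correction put Tfam at 0.020 and Lrpprc at 0.0092. Leaving out 1 library spanned -0.30 to 0.99 for Cox6a2, -0.018 to 0.099 for Sdhb, -0.048 to 0.16 for Uqcrfs1, -0.0048 to 0.16 for Atpif1, -0.083 to 0.024 for Tfam, -0.14 to 0.0060 for Atp5b and -0.10 to 0.041 for Lrpprc.

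At this depth genes of a few counts, such as Cox4i2, Cox6a2 and Cox7b2, cannot show a difference, and with 3 libraries a group an exact permutation test of a single ratio cannot go below p = 0.1.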
